A study of Mus musculus with 2 samples.

Results

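Core promoter footprints are short protected stretches of DNA, found by DNase-seq, that lay at transcription starts of protein-coding genes in mouse thymus. DNase-seq reads out the positions at which DNase I cleaved the chromatin of isolated nuclei, and a footprint is a run of bases that is cut less than the accessible DNA around it. A footprint was a member where its midpoint lay within 100 bp of the first base of a protein-coding transcript on an autosome, on the mouse genome build mm10 (GRCm38). By this rule 52591 of 366852 autosomal footprints (14.3%) were members in replicate 1 and 45700 of 204985 (22.3%) in replicate 2, a mean share of 18.3% ± 5.63 (SD, n = 2). The windows that define them take up 0.319% of the autosomal sequence, and lie around 52092 annotated starts of 20722 genes.

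The study holds 2 DNase-seq libraries of whole thymus, and both belong to 1 group. The mice were females aged 10 days of the hybrid strain B6CASTF1/J, the F1 offspring of C57BL/6J and CAST/EiJ. They carried no treatment, transgene or deletion, and no control group accompanies them. The labels number the females separately but give both libraries the same donor identifier, so the spread between the replicates is the spread between these libraries and may be technical. A single group of 2 gives no test, and each value below is given per replicate. The tissue is a mixture, and its label was checked against marker genes of several cell types in the account of gene lists below.

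The core promoter is the DNA around a transcription start on which RNA polymerase II and the general transcription factors assemble. Sequence-specific factors bind next to it: SP and KLF proteins at GC boxes, NF-Y at CCAAT boxes, ETS proteins, NRF1, and CREB and ATF proteins at cyclic AMP response elements. The TATA-binding protein recognises the TATA box upstream of the start in the small class of promoters that has one. A bound protein can shield its bases from DNase I, which leaves a footprint, and genes active in nearly all cells usually have CpG-rich promoters with broad accessibility. Most thymus cells are thymocytes, the precursors of T cells, and thymic epithelial cells, dendritic cells and B cells make up much of the rest.

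The sequences below show what such footprints look like where the replicates placed them on the same bases. Each is the 100 bases upstream of a start, positions -100 to -1, read 5′ to 3′ on the strand of the gene from the GRCm38.p6 sequence of RefSeq, and capitals mark bases inside footprints of both replicates. The windows overlap no exon of an mRNA in GENCODE M21 or RefSeq. They are 9 of the 12 windows among the named genes with the most bases footprinted in both replicates, so the overlap itself was used to choose them. The windows of Ebf1, Sept9 and Psma1 are not shown. The shared footprints of Ebf1 and Sept9 held none of the strings searched below, and of the windows shown only Lasp1 held none. Most members hold none, as given below, so the windows shown are not typical in this. The sequences are reference bases, and how the CAST/EiJ allele differs was not examined. Rplp0 encodes a ribosomal stalk protein (chr5:115559367-115559466, plus strand). Actb encodes beta-actin (chr5:142905938-142906037, minus strand, 1 of 5 starts). Ets1 encodes an ETS factor of T cells (chr9:32695922-32696021, plus strand). Psmb1 encodes a subunit of the proteasome core (chr17:15499752-15499851, minus strand). Sf1 encodes a splicing factor (chr19:6373910-6374009, plus strand). Gnb2 encodes a G-protein beta subunit (chr5:137533511-137533610, minus strand). Rreb1 encodes a zinc finger factor (chr13:37857834-37857933, plus strand, 1 of 9 starts). Rrm2 encodes a subunit of ribonucleotide reductase (chr12:24708141-24708240, plus strand). Lasp1 encodes an actin-binding protein (chr11:97798900-97798999, plus strand, 1 of 13 starts).
Rplp0: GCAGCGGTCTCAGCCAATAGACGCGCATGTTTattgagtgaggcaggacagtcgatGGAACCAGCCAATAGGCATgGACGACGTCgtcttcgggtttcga
Actb: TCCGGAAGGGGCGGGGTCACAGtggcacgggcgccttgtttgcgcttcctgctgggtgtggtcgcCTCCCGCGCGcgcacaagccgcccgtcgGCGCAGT
Ets1: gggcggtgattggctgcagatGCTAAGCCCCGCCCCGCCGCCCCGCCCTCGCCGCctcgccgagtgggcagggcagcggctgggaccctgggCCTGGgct
Psmb1: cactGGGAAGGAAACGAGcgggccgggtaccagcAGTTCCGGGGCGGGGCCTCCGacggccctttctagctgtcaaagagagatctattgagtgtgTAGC
Sf1: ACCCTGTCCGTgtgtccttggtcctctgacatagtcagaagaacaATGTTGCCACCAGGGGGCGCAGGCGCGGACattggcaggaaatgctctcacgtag
Gnb2: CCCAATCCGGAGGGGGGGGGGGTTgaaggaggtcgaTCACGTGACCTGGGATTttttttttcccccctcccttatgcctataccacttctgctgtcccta
Rreb1: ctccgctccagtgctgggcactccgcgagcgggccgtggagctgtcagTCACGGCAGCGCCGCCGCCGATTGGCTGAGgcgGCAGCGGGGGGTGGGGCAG
Rrm2: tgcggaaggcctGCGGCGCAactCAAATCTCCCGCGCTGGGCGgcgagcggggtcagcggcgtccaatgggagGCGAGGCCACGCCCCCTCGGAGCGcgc
Lasp1: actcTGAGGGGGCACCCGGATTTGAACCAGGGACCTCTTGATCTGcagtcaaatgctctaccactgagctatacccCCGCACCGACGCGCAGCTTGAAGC

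At Rplp0 the replicates gave 60 shared footprint bases of 100, and both CCAAT boxes of the window, at -87 to -83 and -36 to -32, lay in them. At Ets1 a footprint from -79 to -46 in replicate 1 and from -80 to -46 in replicate 2 covered 3 GC boxes (GGGCGG) on the opposite strand. At Actb an ETS string (CCGGAAG) at -99 to -93 and a GC box at -92 to -87 lay side by side in a footprint of 43 bp in either replicate. At Sf1 a CTCF string (CCACNAGGG, where N is any base) at -49 to -41 lay in a footprint from -55 to -26 in replicate 1 and from -56 to -22 in replicate 2. At Gnb2 the E-box CACGTG, bound by MYC and USF proteins, lay at -63 to -58 in a footprint from -70 to -47 in replicate 1 and from -64 to -48 in replicate 2. At Rreb1 a CCAAT box on the opposite strand at -32 to -28 was covered in both replicates. The footprint ran from -57 to the edge of the window at -1 in replicate 1 and from -52 to -23 in replicate 2. A match to letters is a description of the sequence and does not identify the protein. A stretch that reaches -1 is cut off there by the window, so its end is not shown. At Lasp1 both replicates gave the same 2 stretches within the window, -96 to -56 and -24 to -1, and neither held any of the 20 strings searched. RefSeq annotates a tRNA-Cys gene there on the minus strand, at chr11:97798906-97798977, and 41 of its 72 bases were in footprints of either replicate. It was 1 of 2 tRNA genes that lay whole within core promoter windows. The other, a tRNA-Gly gene beside the start of Mettl26 at chr17:25875088-25875158, had 47 and 50 of its 71 bases in footprints of replicates 1 and 2.

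Footprints were denser and wider upstream of the starts than downstream. Oriented by strand and assigned to the nearest start, 53.9% of the members of replicate 1 and 54.6% of those of replicate 2 lay upstream, a mean of 54.2% ± 0.477 (SD, n = 2). The densest 10 bp bin was -10 to 0 bp in both replicates, with 7.88% and 8.21% of the members. The sparsest bin was 90 to 100 bp, with 3.16% and 2.68%. This peak at the start depended on which starts were counted. A footprint between neighbouring starts is assigned to the closer one, and the part of this in the peak was not tested. At the 25162 starts (48.3%) with no other protein-coding start within 200 bp, termed isolated starts here, the profile was flatter. They held 22873 members in replicate 1 and 19494 in replicate 2. The densest bin there was -20 to -10 bp, with 5.99% of the members in both replicates. The sparsest bin there was 80 to 90 bp in replicate 1, with 3.97%, and 90 to 100 bp in replicate 2, with 3.57%. The densest bin exceeded the sparsest 1.51-fold and 1.68-fold. At isolated starts 54.1% and 54.8% of the members were upstream.

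**Figure D1:**
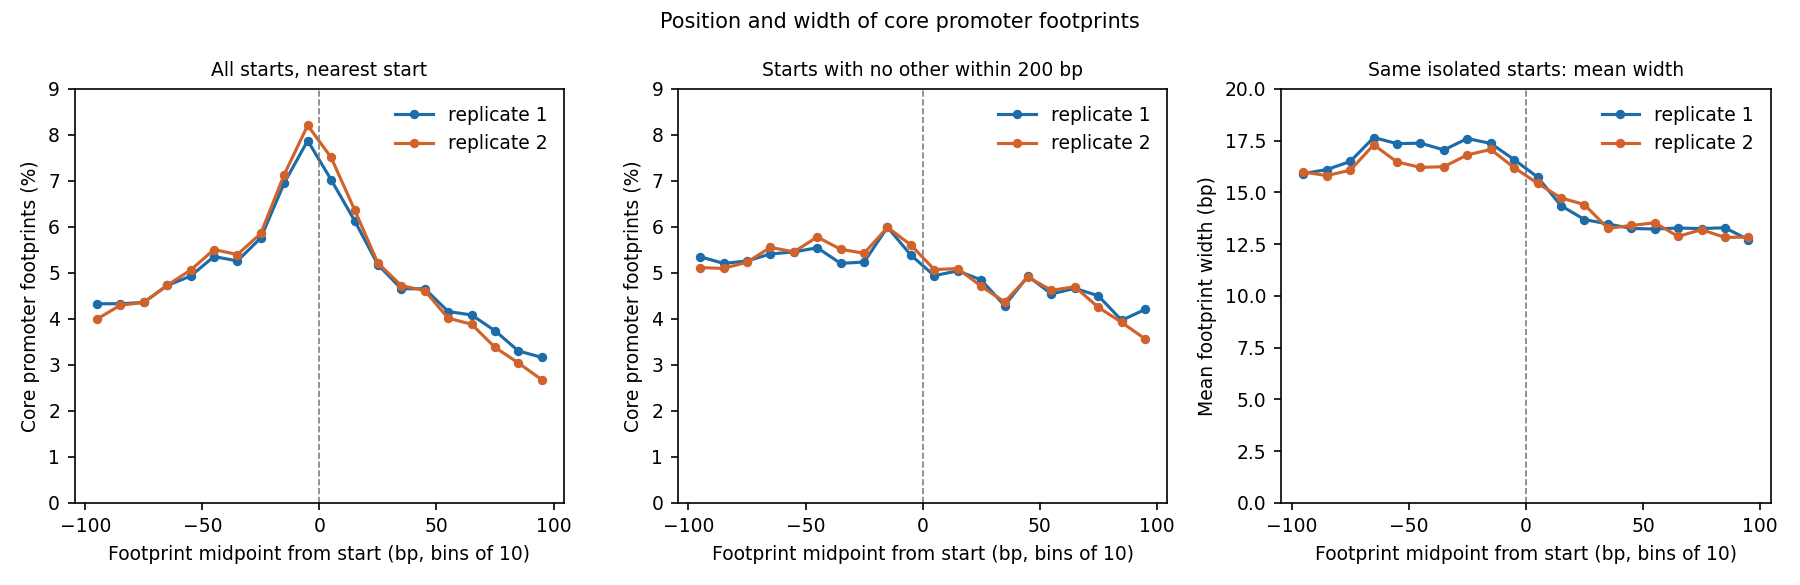
Share of core promoter footprints by the position of their midpoint, for all starts (left) and isolated starts (middle), and their mean width at isolated starts (right), in bins of 10 bp, with negative positions upstream and 1 line per replicate. The peak at the start seen with all starts is lower at isolated starts, where the bin from -20 to -10 bp is densest at 5.99% in both replicates, and widths fall across the start.

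Base by base, the fall across the start was larger than in the counts of midpoints. At isolated starts with any footprint base (7076 in replicate 1 and 6206 in replicate 2), a base upstream lay in a footprint at a mean of 29.4% and 28.1% of starts. A base downstream did so at 20.2% and 19.5%. The highest coverage was 31.8% at -18 bp in replicate 1 and 30.6% at -13 bp in replicate 2, and by +100 bp it had fallen to 15.4% and 13.4%. The deposited intervals with a significant cut rate, which mark the bases where DNase I cut often, did not fall in the same way. They covered 34.8% of upstream and 34.5% of downstream bases over all isolated starts in replicate 1, and 28.8% and 28.5% in replicate 2.

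Width fell across the start as well. At isolated starts the median width was 14 bp from -20 to -10 bp in both replicates and 10 bp from 90 to 100 bp. Over all members the median was 12 bp in either replicate, with quartiles of 8 and 20 bp. The mean was 15.7 bp in replicate 1 and 15.4 bp in replicate 2, and the widest members had 86 and 70 bp. Other autosomal footprints were narrower, with medians of 9 and 10 bp. Footprints of 7 bp, the narrowest in the files, made up 19.2% and 19.4% of the members and 28.7% and 27.5% of the others. Footprints of 30 bp or more made up 9.77% and 8.91% of the members and 5.77% and 5.92% of the others. The widths had a step that both sets and both replicates shared: 5.17% of the members of replicate 1 had 13 bp and 2.63% had 14 bp, against 5.44% and 2.70% in replicate 2. Among the other footprints the same widths held 5.54% and 1.77% in replicate 1 and 5.79% and 1.88% in replicate 2.

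The region within 100 bp of a start was denser in footprints than any other class of distance. Per kb of the intervals with a significant cut rate there were 14.5 footprints in replicate 1 and 14.4 in replicate 2. From 100 to 250 bp the density was 9.06 and 8.35 per kb, and from 250 to 500 bp it was 4.25 and 4.78. Beyond 1000 bp it was 6.72 and 9.14 per kb. Within 100 bp, footprints took up 22.7% and 22.1% of the bases of these intervals. Of the members, 78.8% and 82.1% overlapped a deposited peak of the same library, and 83.3% and 84.7% of the other footprints did.

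Replicates often placed a core promoter footprint on the same bases, and the width of the footprint went with how often. Of the members of replicate 1, 33383 (63.5%) shared at least 1 bp with a footprint of replicate 2. Of the members of replicate 2, 33966 (74.3%) shared at least 1 bp with a footprint of replicate 1, which has more footprints. For the other autosomal footprints these shares were 28.5% and 58.3%. A share counted from 1 bp includes chance contact, since footprints took up 25.6% and 23.7% of all bases in core windows that held any. Counting only overlapping pairs with midpoints within 5 bp gave 48.9% and 56.4%. The median distance between the midpoints of overlapping members was 2.5 bp, with an upper quartile of 5 bp. Identical first and last bases occurred for 1348 members, 2.56% of replicate 1 and 2.95% of replicate 2. By width, 33.4% and 47.5% of the members of 7 bp were found in the other replicate, and 97.7% and 99.7% of those of 30 bp or more. A wider footprint has more bases that can be touched, so part of this order follows from the measure.

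**Figure D2:**
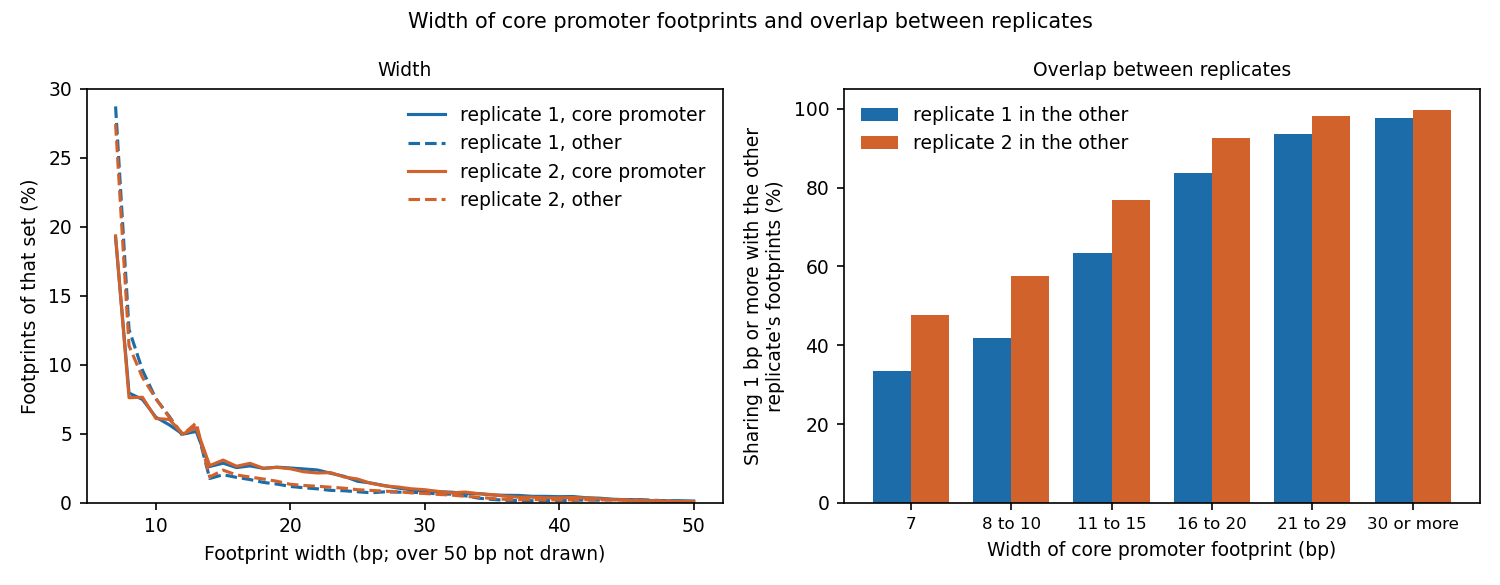
Left, share of footprints at each width in bp for core promoter members (solid) and other autosomal footprints (dashed). Right, share of members that shared at least 1 bp with a footprint of the other replicate, by width class. Members hold fewer footprints of 7 bp than the others, and overlap between replicates goes from 33.4% and 47.5% at 7 bp to 97.7% and 99.7% at 30 bp or more.

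Footprints per start also went with the height of the peak at the start, the authors' deposited signal. Isolated starts with a peak were put in 5 classes of nearly equal size by height in each library. In the lowest class 47.4% of starts in replicate 1 and 59.8% in replicate 2 had a member, and in the highest class 99.7% and 99.6% had one. Members per start went from 0.884 and 1.15 in the lowest class to 4.08 and 3.93 in the highest. Their median width went from 8 bp in either replicate to 17 and 16 bp, and the share found in the other replicate from 11.1% and 38.1% to 78.9% and 84.0%. Among isolated starts without a peak, 3.46% and 1.96% had a member. These members broke the order: 41.5% and 62.9% of them were found in the other replicate, more than in the lowest class, and their median width was 9 and 10 bp. Read numbers per library are not given in the sources used here, so no value has a counting interval. Of the 7424 isolated starts with a member in either replicate, 20.6% had the same number in both and 65.8% had numbers that differed by at most 1. More members in replicate 1 were found at 51.3% and more in replicate 2 at 28.2%.

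Footprint bases were richer in G, C and CpG than the rest of the same windows. In replicate 1, 70.8% of footprint bases and 63.6% of the other bases of the same windows were G or C. In replicate 2 these shares were 72.2% and 64.0%. CpG dinucleotides numbered 121 and 128 per kb inside footprints and 77.2 and 79.1 per kb outside. Sequence composition therefore moved with footprints, and its part in the motif values that follow was not tested.

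Strings of 20 motifs were then searched on both strands in all 34985 joined core windows, and a match counted as footprinted where its centre base lay in a footprint. Matches and their shares were counted over windows that held any footprint base in that replicate, and the percentages of windows over all 34985. Matches in windows without a footprint base are thus left out of the shares. The background was the share of all bases in footprints, 25.6% in replicate 1 and 23.7% in replicate 2, over windows that held any. As a control, the same letters were searched read backwards, which keeps the bases but not the CpG dinucleotides. The cyclic AMP response element TGACGTCA, the site of CREB and ATF proteins, had the highest share. It occurred in 1.43% of all windows, at 513 matches. In windows with a footprint base, 371 of 403 matches (92.1%) were footprinted in replicate 1 and 351 of 395 (88.9%) in replicate 2. Its letters read backwards, which hold no CpG, were footprinted at 4.76% of 63 matches and 9.68% of 62. The NRF1 string GCATGCGC, bound by a regulator of nuclear genes for mitochondria, occurred in 1.97% of all windows, at 989 matches. It was footprinted at 741 of 851 matches (87.1%) and 710 of 844 (84.1%), against 19.4% and 20% backwards, where 36 and 35 matches were counted. The ZBTB33 string TCTCGCGA occurred in 0.720% of windows and was footprinted at 79.5% and 72.4% of its matches, against 36.6% and 29.8% backwards. For these 3 strings the values of both replicates lay far above the background and above the control.

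ETS, CTCF, TCF and RFX strings had lower shares that were still above the background. The ETS string CCGGAAG occurred in 7.31% of windows and was footprinted at 51.1% and 53.6% of matches, against 28.7% and 22.4% backwards. The string of CTCF, the main insulator protein of vertebrates, occurred in 1.13% of windows and was footprinted at 55.5% and 53.7%, against 14.2% and 10.1%. The string of TCF7 and LEF1 (CTTTGAT), factors of early T cells, occurred in 2.26% of windows and was footprinted at 40.2% and 42.6%, against 22.7% and 12.9%. The TCF shares rest on 179 matches in replicate 1 and 155 in replicate 2. RUNX, E-protein and GATA strings, whose factors also act in T cells, lay below the background. The RUNX string TGTGGTT gave 22.9% and 16.3%, against 13.7% and 10% backwards. The E-protein string CAGCTG gave 18.9% and 17.5%, below the 21.4% and 22.8% of its backward letters, and the GATA values follow below. The RFX string GTTGCCA occurred in 2.89% of windows and was footprinted at 41.6% and 40.7%, but its letters read backwards gave 30.6% and 40.7%, so it did not exceed its control in replicate 2.

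For the GC box the control was nearly as high as the motif. The string GGGCGG occurred in 34.0% of windows and was footprinted at 51.9% and 49.6%, and read backwards it gave 49.9% and 48.1%. The backward letters overlap the GC box in longer runs of the same bases. The E2F string TTCCCGCC (1.92% of windows) gave 36.3% and 37.6%, below the 58.1% and 55.9% of its letters read backwards, which contain the GC box on the opposite strand. CCAAT, found in 26.6% of windows, was footprinted at 30.3% and 28.5%, little above the background, against 19.03% and 16.2% backwards. The YY1 string AAGATGG (5.37% of windows) gave 31.2% and 28.9%, and TATAAA (8.47%) gave 28.4% and 27.7%. The strings of AP-1 (TGACTCA, 3.16% of windows) and GATA factors (AGATAA, 6.73%) lay below the background, at 8.19% and 8.44% for AP-1 and at 12.9% and 10.4% for GATA. In all, 15 of the 20 strings exceeded their backward letters in both replicates, 4 fell below them in both and 1 was split. The 15 include the GC box, by the small margin above. They also include the ZNF143 string, whose backward letters had only 3 and 2 matches, none of them footprinted. The 4 were the E2F, E-protein, AP-1 and GATA strings.

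**Figure D3:**
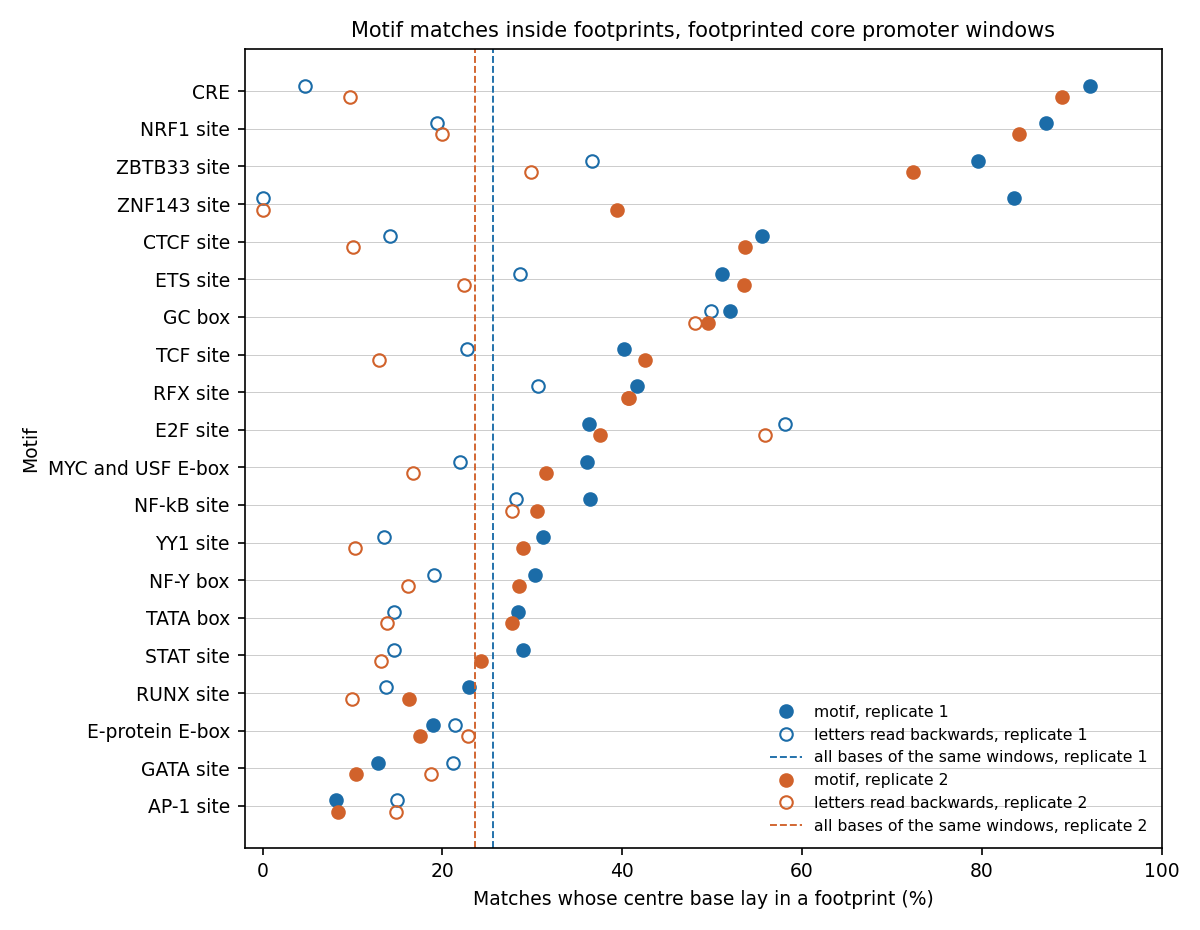
Share of motif matches whose centre base lay in a footprint, in core promoter windows that held any footprint base, for each motif (filled points) and the same letters read backwards (open points), by replicate, with NF-Y box standing for CCAAT and the E-boxes named by their proteins. Dashed lines give the share of all bases in footprints, 25.6% and 23.7%. The CRE, NRF1 and ZBTB33 strings stand to the right of both controls in both replicates, and the GC box stands close to its own control.

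The ZNF143 string ACTACAATT differed most between the replicates. It is the site of a zinc finger factor of promoters, and it occurred in 0.266% of windows. All windows together held 93 matches. In windows with a footprint base, replicate 1 footprinted 56 of 67 matches (83.6%) and replicate 2 footprinted 26 of 66 (39.4%). Of the 32 matches footprinted in replicate 1 alone, 28 lay in a peak of replicate 2 and 21 touched a footprint of replicate 2 with another base. At isolated starts the footprints on these matches had a median width of 31 bp in replicate 1, over 17 matches, and 14 bp in replicate 2, over 6. For comparison, 741 and 710 NRF1 matches were footprinted in the 2 replicates, 681 of them in both.

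Footprinted strings also had positions of their own, as read at isolated starts. The medians below depend on where all matches of a string lie as well as on which were footprinted. Strands were read for footprinted matches only. Footprinted CCAAT boxes lay farthest upstream among the common strings, with a median centre at -43.5 bp in replicate 1 and -48 bp in replicate 2, and 80.8% and 81.6% were upstream. Footprinted GC boxes had their median at -29 bp in both replicates, NRF1 strings at -20.5 and -22 bp, and ETS strings at -7.5 and -8 bp. Footprinted YY1 strings lay downstream, at medians of 13 and 10 bp, and 74.4% and 75.2% of them were on the strand of the gene. GC, CCAAT and NRF1 strings had no such preference, with 49.4% to 55.02% on that strand in either replicate. YY1 matches of any kind were most numerous from 0 to 50 bp, with 186 of 386 in replicate 1 and 177 of 367 in replicate 2. The share of them that was footprinted was 30.6% and 31.6% there, and higher from -100 to -50 bp, at 43.6% and 51.0%. Footprinted TATAAA strings lay at -28 and -26.5 bp and were on the strand of the gene in 84.9% and 82.8%. Their number was small, 73 in replicate 1 and 58 in replicate 2. Footprints on CRE strings were wide, with a median of 26 bp in both replicates, and their midpoints lay a median of 2 bp from the centre of the string.

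Most members held none of the strings. With 5 bp added on either side, 37170 members of replicate 1 (70.7%) and 31411 of replicate 2 (68.7%) had no match. Their median width was 11 bp in both replicates. The GC box was in 17.9% and 19.2% of the members, CCAAT in 4.15% and 4.46%, the ETS string in 2.92% and 3.31%, and NRF1 and CRE strings in 1.13% or fewer. Members with 2 or more of the strings made up 2.89% and 3.12% and had a median width of 27 bp.

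CpG-rich starts carried most of the members. Isolated starts were called CpG-rich where the 201 bases around them held at least 55% G or C and at least 0.6 of the CpG expected from their bases. Of 7064 such starts, 69.8% in replicate 1 and 65.0% in replicate 2 had a member, with 3.52 and 3.40 members per footprinted start. Of 18098 CpG-poor starts 11.5% and 8.60% had one, with 2.64 and 2.50 per footprinted start. Peaks differed in the same direction: 72.8% and 68.8% of CpG-rich and 14.5% and 10.8% of CpG-poor starts had a peak. The median width was 13 and 12 bp at CpG-rich and 10 bp at CpG-poor starts in both replicates.

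Starts with a TATA box had their highest coverage just upstream of the start, although few had any footprint. TATAAA began 40 to 20 bp upstream of 508 isolated starts, and 10.6% and 9.65% of these had a member, against 28.2% and 24.8% of the other isolated starts. Of the 508, 445 were CpG-poor. Among TATA starts with any footprint base, 55 in replicate 1 and 49 in replicate 2, coverage was highest at -23 bp in both replicates, at 56.4% and 53.1%. Starts without the string reached at most 31.7% and 30.6%, at -17 and -13 bp. Between -35 and -21 bp the mean coverage was 50.4% and 42.4% with the string and 29.6% and 28.3% without it. Most of these starts, 43 of 55 and 39 of 49, were CpG-rich. Within the CpG-rich class coverage between -35 and -21 bp was 55.2% and 45.6% with the string and 33.8% and 31.6% without. The 12 and 10 CpG-poor TATA starts with any footprint base did not share this maximum, and their highest coverage was at -78 bp in replicate 1 and at 8 bp in replicate 2.

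**Figure D4:**
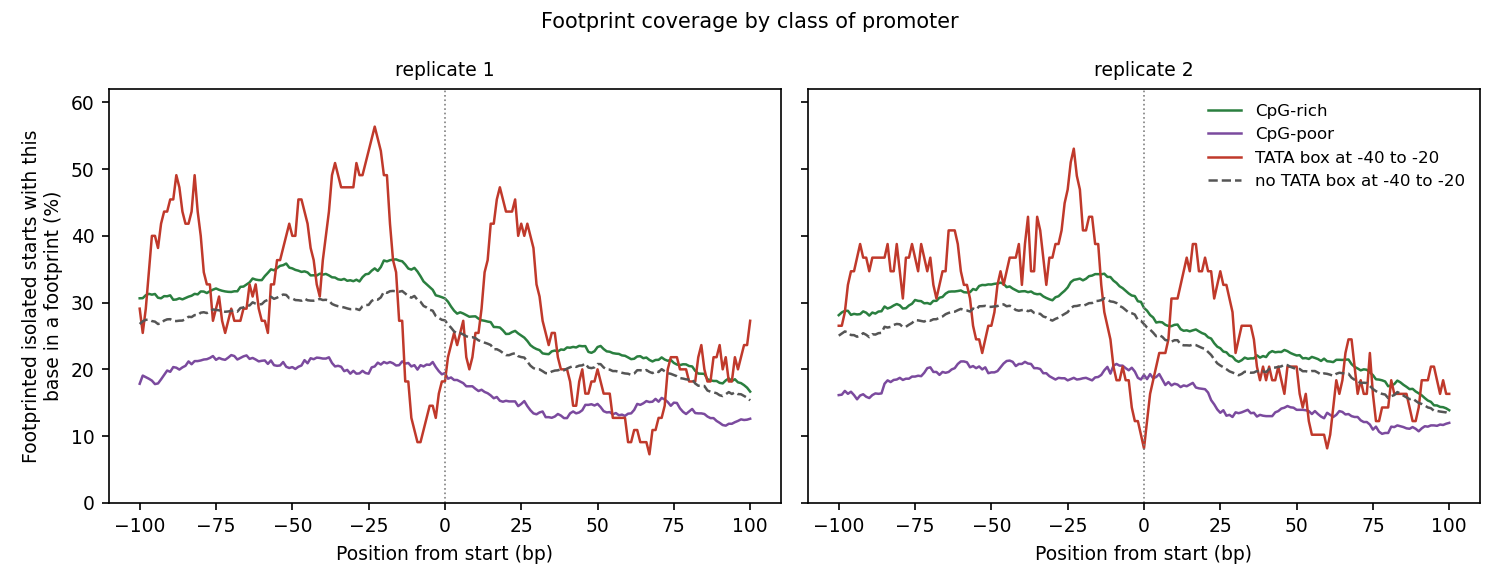
Share of isolated starts with any footprint base whose base at each position from -100 to +100 bp lay in a footprint, by class of promoter, with 1 panel per replicate. TATA starts, 55 and 49 in number, peak at -23 bp at 56.4% and 53.1%, and the CpG-rich curve runs above the CpG-poor curve.

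A footprint at the core promoter was present for 11517 of 20722 genes in replicate 1 (55.6%), for 10846 in replicate 2 (52.3%) and for 10599 in both (51.1%). Replicate 1 alone had 918 further genes and replicate 2 alone 247. Footprinted genes had a median of 4 members in either replicate. As genes have different numbers of annotated starts and so different lengths of window, counts per gene also followed the annotation. Genes with 1 start had a mean of 1.53 members in replicate 1 and 1.36 in replicate 2, and genes with 10 or more starts had 7.25 and 6.06. Per 100 bp of window the first held 0.763 and 0.675 members and the second 0.490 and 0.410.

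The genes with the most members were therefore genes with many starts. The first 20 had 7 to 15 starts with a median of 9.5, against 2 for all genes. Rreb1 led with 24 members in replicate 1 and 20 in replicate 2. Ube2d3, a ubiquitin-conjugating enzyme, had 19 and 22, and Hnrnpf, an RNA-binding protein of splicing, had 20 and 20. Ing1, a reader of methylated histone H3 at active promoters, had 21 and 17 over 852 bp of window, which at 2.46 and 2.00 per 100 bp was the densest of the 20 in replicate 1. Kdm2b, a histone demethylase that binds CpG islands, had 24 and 13 and thus the widest gap between replicates among the 20. Satb1, a chromatin organiser of thymocytes, had 20 and 12, Coro1a, an actin regulator needed for T-cell survival and migration, had 18 and 16, and Ccnd3, a cyclin of proliferating thymocytes, had 17 and 16. The remaining 12 were Dnpep, Nr3c1, Lasp1, Tgif1, Ilvbl, Rnf44, Hdlbp, Sept9, Anks1, Gnb2, Sf1 and Plec, with 14 to 20 members in replicate 1 and 14 to 21 in replicate 2. Nr3c1, the glucocorticoid receptor, had 18 and 21.

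Among the 7648 genes with a single start, 41.6% in replicate 1 and 38.9% in replicate 2 had a member. The highest counts in a single window of 201 bp, summed over replicates, were those of Dsel (7 and 8), Rabl6 (8 and 7), Unk (7 and 8), Gpatch3 (9 and 6) and Taf1c (10 and 5). Taf1c encodes a subunit of the selectivity factor of RNA polymerase I. Prdx3, a mitochondrial peroxiredoxin, had 7 and 7, Cox6a1, a subunit of cytochrome c oxidase, 8 and 6, and Nnt, the mitochondrial transhydrogenase, 6 and 8.

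Lists of genes were read against the background of 55.6% and 52.3% of all genes with a footprint. These lists were drawn up with earlier results of these libraries known, and their counts are a description. All 20 genes of T-cell receptor and signalling had a footprint in replicate 1 and 19 in replicate 2, with a mean of 4.95 and 3.60 members per gene against 2.64 and 2.30 over all genes. Lck, the kinase that starts T-cell receptor signalling, had 7 and 7. Fyn, a related kinase, had 7 and 5, and Zap70, the kinase recruited to the receptor, had 9 and 3. Cd8a, a coreceptor chain, had 6 and 5. Ptprc was the gene without a footprint in replicate 2, where it had 0 against 7 in replicate 1, and is named after its values were seen.

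Cd4 and Cd3e, which each have 1 start, had few footprints that the replicates shared. Cd4, the other coreceptor, whose start is base 124888221 of chromosome 6 on the minus strand, had 1 footprint in replicate 1, centred at -95 bp, and 5 in replicate 2, at -66, -29, -15, -0.5 and 51.5 bp. None of them overlapped between replicates. Cd3e, a signalling chain of the receptor complex, whose start is base 45009613 of chromosome 9 on the minus strand, had 2 in replicate 1, at -80 and 72 bp, and 4 in replicate 2, at -83.5, -34.5, 23 and 39.5 bp. Of these the most upstream pair overlapped, by 6 bp. Actb gave the opposite picture: 8 of its 10 footprints in replicate 1 overlapped footprints of replicate 2, which also had 10, and the median width was 31 and 24 bp. At the most upstream start of Actb a footprint of 31 bp centred at -56 bp in replicate 1 lay whole within one of 32 bp at -55.5 bp in replicate 2. The peak at the promoter of Actb had a height of 15.2 and 18.1 in the authors' deposited signal, and that at Cd4 2.88 and 1.51.

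Transcription factors of the T lineage had footprints in 20 of 20 genes in replicate 1 and 18 of 20 in replicate 2, with 7 and 5.7 members per gene. Their genes had a mean of 4.30 starts against 2.51 for all genes. Per 100 bp of window they held 1.04 and 0.850 members against 0.686 and 0.598. Besides Satb1, Tcf12 (19 and 9), which encodes an E protein, Foxp1 (12 and 12) and Ikzf1 (11 and 9), which encodes Ikaros, had the most. Only 2 of the 12 Foxp1 footprints of replicate 1 were found in replicate 2, although the counts were equal. Tcf7, the factor that sets T-cell fate early in the thymus, had 6 and 12, with 4 of the 6 found in replicate 2. Ets1 had 8 and 7, with 5 of the 8 found in replicate 2. Bcl11b, which commits thymocytes to the T lineage, had 1 footprint in replicate 1, of 8 bp at -55.5 bp, and none in replicate 2 over its 2 starts. Its start had a peak of height 1.57 in replicate 1 and no peak in replicate 2. Tox, named after its values were seen, was the other gene without a footprint in replicate 2, against 2 in replicate 1.

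The list of V(D)J recombination and the pre-T-cell receptor also held Notch1, Hes1, Dtx1 and Il7r, which are genes of Notch and interleukin-7 signalling. In this list 12 of 14 genes had footprints in replicate 1 and 13 of 14 in replicate 2. Lig4, the ligase that joins broken DNA ends, had 10 and 8, Xrcc6 (Ku70) had 8 and 6, Xrcc5 (Ku80) had 5 and 6, and Xrcc4, the partner of the ligase, had 8 and 3. Rag1 and Rag2, the recombinase itself, had 2 and 2, and 3 and 2. Of the Rag1 footprints only 1, in replicate 1 and centred at 51 bp, had the Rag1 start as its nearest start. It did not overlap a footprint of replicate 2, and the other Rag1 footprints were assigned to a start of another gene. At Rag2 the footprint centred at -51 bp in replicate 1 and -55.5 bp in replicate 2 shared 16 bp between the replicates. The genes without a footprint were both Notch targets. Dtx1 had none in either replicate. Hes1, named after its values were seen, had none in replicate 1 and 2 in replicate 2.

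In both replicates core promoter footprints were present at 30 of 30 cytosolic ribosomal protein genes, 24 of 24 genes of RNA polymerase II and the general factors, 24 of 24 proteasome genes and 21 of 21 genes of factors that bind promoter elements. The list of RNA polymerase II also held Taf1a, which encodes a subunit of the selectivity factor of RNA polymerase I. That list had 1.85 and 1.79 members per 100 bp and proteasome genes had 1.66 and 1.46. Polr2h had 9 and 11, Taf6 9 and 11, Polr2i 8 and 9 and Polr2a, the largest subunit of the polymerase, 8 and 7. Psmb1 had 11 and 10, and all 6 footprints of Psma1 in replicate 1 were found among the 6 of replicate 2. Among ribosomal genes Rps14 had 11 and 8, Rpl19 9 and 8, Rpl18 5 and 11, Rpl27 6 and 7 and Rplp0 7 and 5. Rplp0 had 6 of its 7 footprints of replicate 1 found in replicate 2, and the one centred at -88.5 bp had the same 40 bases in both. Of the promoter factors, Elk4 had 14 and 9, Creb1 11 and 9, Gabpa 9 and 10 and Nfya 10 and 9, and 9 of the 10 at Nfya were found in replicate 2. Replication and cell cycle genes had footprints in 20 and 19 of 20, led by Mcm7, a subunit of the replicative helicase, with 16 and 12. Bub1, a kinase of the spindle checkpoint, and Rrm2 each had 7 and 6, and Cdk2, a kinase of S-phase entry, had 5 and 7. Mki67 was the gene with none in replicate 2, against 4 in replicate 1, and is named after its values were seen.

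Markers of other cell types were mostly without core promoter footprints, below the share of all genes. Hepatocyte genes had footprints in 2 and 0 of 16, and Alb (albumin), Apoa1 and Apoa2 had none. For skeletal muscle genes the counts were 3 and 3 of 14, among them Mylpf, a myosin light chain, with 3 and 2, and none at Acta1, Ckm and Des. For neuronal genes they were 3 and 2 of 13. Grin1, a glutamate receptor subunit, was high among the neuronal genes at 7 and 8, of which 4 of the 7 were found in replicate 2. Their median width was 9 bp in both replicates. Erythroid genes had footprints in 2 and 3 of 10. Among them Tfrc, the transferrin receptor, which dividing cells of many types express, had 8 and 5, and the globin genes Hba-a1 and Hbb-bs had none. Of the 13 genes of myeloid and dendritic cells, 3 and 2 had one, with Lyz2 (lysozyme) at 5 and 1, and Csf1r, Cd14 and Adgre1 at none. Peaks at the starts were low at Grin1 (heights of 1.34 and 0.904) and Lyz2 (0.637 and 0.336). Mylpf had no peak in either replicate, and Tfrc had high ones (10.4 and 14.1).

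B-lineage genes had footprints in 5 of 12 in either replicate, with 3 of them the same genes. Ebf1 had 4 and 4, and all 4 of replicate 1 were found in replicate 2, Blk had 3 and 3, and Cd79a and Fcer2a had none. Thymic epithelial genes had footprints in 5 of 13 in both replicates. Ccl25, a chemokine of the thymic stroma, had 5 and 4, Prss16, a protease of cortical epithelium, 3 and 4, Cldn4 4 and 3 and Epcam 2 and 4. Peak heights were 7.79 and 7.15 at Ccl25, 2.49 and 1.33 at Prss16, 3.75 and 3.45 at Cldn4 and 0.573 and 0.498 at Epcam. Foxn1, the master factor of thymic epithelium, Dll4, its Notch ligand, and Krt14 had none. In a bulk tissue, fewer cells of a type and less protection per cell cannot be told apart.

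**Figure D5:**
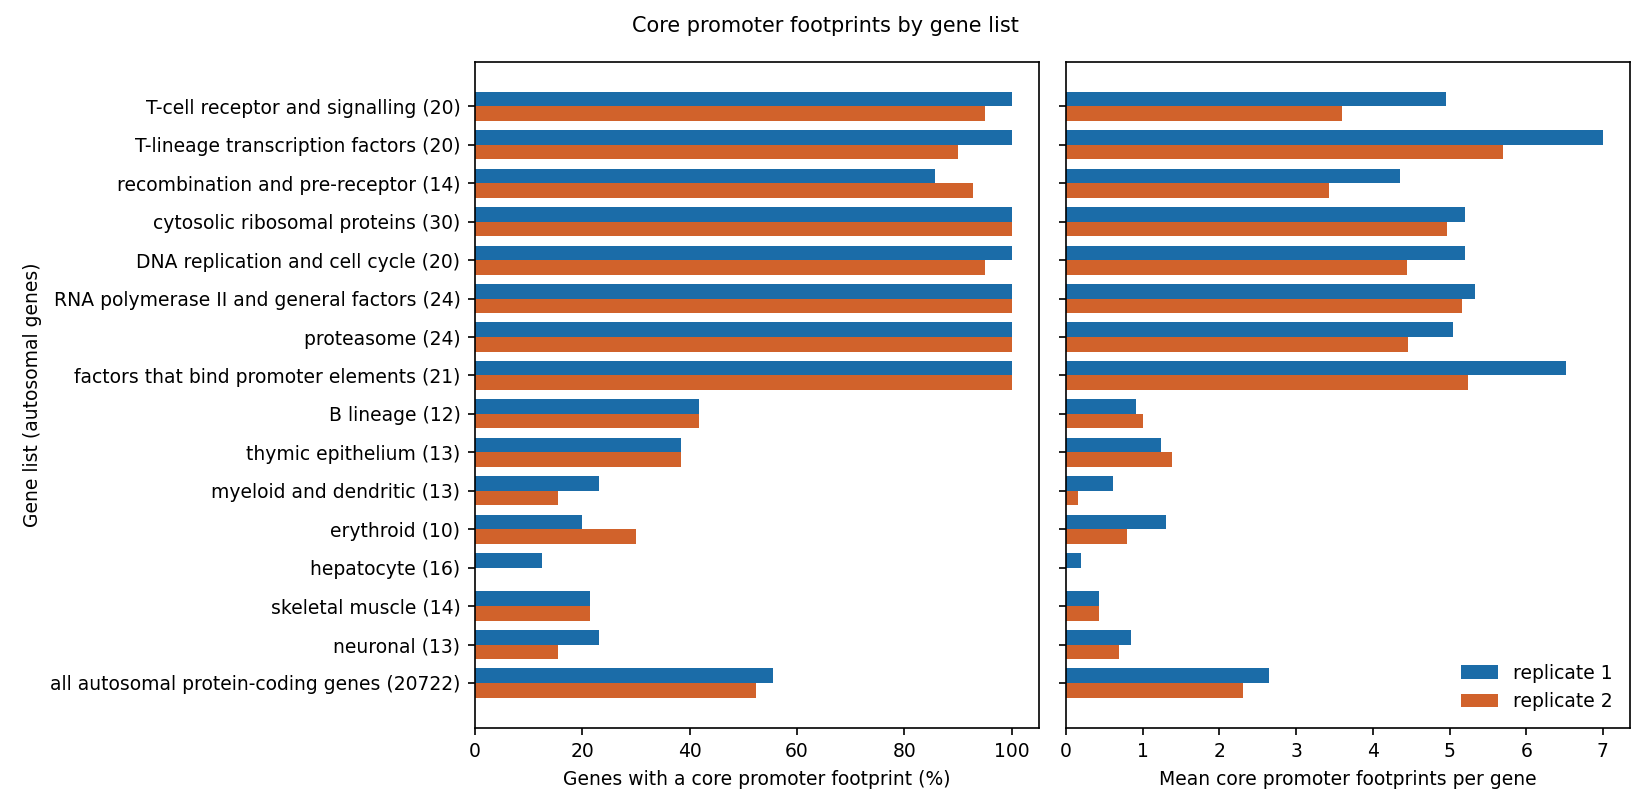
Share of genes with a core promoter footprint (left) and mean number of core promoter footprints per gene (right) by gene list and replicate, with the number of autosomal genes in parentheses. The first 8 lists lie between 85.7% and 100%, all genes at 55.6% and 52.3%, and lists of other cell types at 41.7% or lower.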

How the data were processed

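DNase-seq of 2 thymus libraries was analysed, each as a replicate of 1 group. All intervals are on mm10 and were made for each library alone, without pooling, per the README the authors deposited with each sample. The deposited footprint lists hold intervals and a constant value of 0.01, which was not used. The deposited peak lists give a signal, the height of each peak. The deposited cut-rate lists give a false discovery rate (FDR) per interval, all values being under 0.05. The aligner, callers, thresholds, scaling, bias correction and read numbers are not given in the sources used here, so depth is unknown.

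Computed here were membership, position, width, overlap (at least 1 bp) and motif matches. The work used Python 3.11.15, numpy 2.4.6, pandas 2.3.3, pysam 0.24.0, bedtools 2.31.1, samtools 1.23.1 and matplotlib 3.10.9. Starts were the first bases of protein-coding transcripts in GENCODE M21, and sequence and tRNA genes came from RefSeq GRCm38.p6. All intervals on the 19 autosomes lay within the reference lengths in both replicates. A member in the window of several genes counted for each (4.14% and 4.42% of members). Footprints on X and Y, 8522 and 5029, were not used. On simulated data, 100% of 3000 placed footprints were recovered at their offset.

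The members, gene lists and motifs were chosen with earlier results of these data known. Genes named were the 20 with the most members, in each list up to 4 with the most and up to 3 with none, and 13 always named: Cd3e, Cd8a, Cd4, Lck, Rag1, Rag2, Ets1, Tcf7, Bcl11b, Actb, Rplp0, Alb and Foxn1. One gene that this rule names is not reported here. Genes with a single start and genes marked so in the text were added after their values were seen. Alternatives were other sets of starts, a window of 50 bp, the shorter of the deposited peak lists, stricter overlap and each replicate alone. The rule that a whole motif match lies in a footprint was chosen after seeing the data.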

Additional observations from a re-analysis of the deposited data

How the results depend on the processing

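Of 34 values recomputed with other starts, windows, peaks or overlap rules, 17 moved by more than the spread between replicates. For the median width and the densest bin the spread was 0, so any change at all counted as moved. Another 12, from single replicates, cannot exceed that spread by construction, and 6, from joining footprints, repeat the same intervals, since none overlap or touch. Values here are means of both replicates. The share of footprints at core promoters, 18.3%, was 11.02% within 50 bp. The share of genes with a footprint, 54.0%, was 48.3% with the first start of each gene, 51.1% within 50 bp, 50.2% with footprints in the shorter of the peak lists and 96.3% at starts with a peak in both replicates, which leaves 10875 genes. The upstream share, 54.2%, was 55.5% with starts of all transcripts, 51.9% with first starts, 52.8% within 50 bp and 59.1% in the shorter list. The median width of 12 bp became 13 bp with first starts and in the shorter list, and 12.5 bp within 50 bp and at starts with a peak in both. The densest bin, centred at -5 bp, was at -10 bp on average with first starts and at -15 bp at isolated starts. Overlap with the other replicate, 68.9%, was 51.2% when 50% of both footprints had to be shared and 52.6% for midpoints within 5 bp. Single replicates gave 14.3% to 22.3% for the share at core promoters, 52.3% to 55.6% of genes, 53.9% to 54.6% upstream and 63.5% to 74.3% overlap. With whole motif matches inside footprints, 16 of 20 motifs exceeded their backward letters in both replicates in place of 15. No paired analysis was possible because the replicate numbers occur in 1 group and no test was made. What separates the peak lists is not given in the sources used here. Unknown depth limits all counts of footprints.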
